A study of Homo sapiens with 6 samples.

Results

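FGFR3, its fusion partner BAIAP2L1 and 8 other receptor tyrosine kinase genes (FGFR1, FGFR2, FGFR4, IGF1R, INSR, MET, AXL and EPHA2) were compared between RC48-exposed and Control cells of SW780, a human bladder cancer line. The genes were chosen by name, and all 10 were found among the 16390 genes of each library by gene symbol. Total RNA was sequenced in 3 Control libraries, made from SW780 without RC48, and in 3 libraries made from SW780 after exposure to RC48 (25 µg/ml), and the exposure time of this experiment is not named in the sources used here. RC48 (disitamab vedotin) couples an antibody against ERBB2 to a drug that blocks microtubules. The study's methods describe the cells as stable SW780, both groups are the same single line, and no label says whether the 3 libraries of a group came from separate cultures. The p-values therefore measure the spread between libraries, which may be technical.

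Receptor tyrosine kinases span the cell membrane, bind a growth factor or a ligand on a neighbouring cell outside it, and pair up so that their inner kinase domains phosphorylate each other and recruit adaptor proteins. FGFR3 is altered by mutation or fusion in many urothelial tumours, and SW780 is known to carry a fusion that joins the kinase part of FGFR3 to the dimerising part of BAIAP2L1, a membrane-curving adaptor protein with a BAR domain. FGFR1, FGFR2 and FGFR4 are its sister receptors, and IGF1R, INSR, MET, AXL and EPHA2 belong to other families that feed into the same downstream kinases.

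The estimated counts summed to between 16453233 and 17988030 in a library, and the 10 genes had between 36 and 15090 counts. Checked against its label, the line had epithelial and luminal markers along with some basal ones: 5 epithelial genes summed to 9704 to 10210 TPM (a level scaled to transcript length and to the whole library) in Control and 9429 to 10600 TPM in RC48, and 8 luminal urothelial genes summed to 691 to 740 TPM and 694 to 762 TPM. The 5 basal urothelial genes summed to 200.1 to 220.3 TPM in Control and 163 to 215 TPM in RC48, mostly CD44 and TP63. Single markers moved in both directions. Lower in every RC48 library was EPCAM, at 208 to 214 TPM in Control and 98.5 to 182 TPM in RC48. So were the luminal factor FOXA1 (78.1 to 85.7 TPM and 42.7 to 70.2 TPM) and the luminal keratin KRT20 (2.25 to 2.44 TPM and 0.49 to 1.11 TPM). Higher in every RC48 library was the luminal factor ELF3, at 205 to 216 TPM in Control and 227 to 265 TPM in RC48. So were the epithelial keratin KRT19 (4234 to 4485 TPM and 4509 to 5055 TPM) and the basal keratin KRT14 (3.75 to 4.69 TPM and 5.11 to 7.80 TPM). None of the other basal genes was separated in this way. CD44 and TP63 lay below Control in RC48 replicates 1 and 3 and not in RC48 replicate 2. These single markers were picked after their values were seen. Of all genes, 17.4% had every RC48 library above Control and 14.1% had every one below, by counts scaled to library size. The part of such marker changes in the results on the 10 genes was not tested. The leukocyte markers summed to 1.70 to 2.11 TPM in Control and 2.87 to 4.87 TPM in RC48, with PTPRC at 0 to 0.022 TPM, the endothelial markers to 7.06 to 8.15 TPM and 5.12 to 6.06 TPM, and the fibroblast markers to 123 to 135 TPM and 49.7 to 92.0 TPM, nearly all of it LUM, with DCN and PDGFRA at or near 0. ERBB2, the target of RC48, was at 83.0 ± 4.16 TPM in Control and 88.1 ± 11.4 TPM in RC48 (SD, n = 3).

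The libraries of the RC48 group differed from each other more than those of the Control group. Over 11976 genes, chi-square divided by its degrees of freedom, where sampling noise alone gives about 1, was 1.44 to 11.6 between Control libraries and 22.4 to 136 between RC48 libraries. In RC48 replicate 1 the difference from Control ran along the GC content of the transcript: the median log2 ratio was −1.0 in the tenth of all genes with the lowest GC content and 0.69 in the tenth with the highest. The same medians were 0.03 and 0.01 in RC48 replicate 2, and −0.41 and 0.26 in RC48 replicate 3. For each of the 10 genes the fold change is therefore given as fitted by edgeR and also after a correction that subtracted the GC trend of each library.

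The 10 genes differ widely in this property, from MET with 42.4% GC in its longest coding transcript to FGFR4 with 63.6%. To show what such a difference looks like in sequence, stretches of 120 bases from a coding exon of 4 of the genes are printed below in order of falling GC content, with G and C in capitals. Each was chosen as the stretch whose GC content lies closest to that of the gene's longest coding transcript, and is a picture of that value, not evidence for it. The exons are those of the transcript with the longest coding sequence, read from GENCODE release 29 (GRCh38).
FGFR3 (exon 7, chr4:1801895-1802014, plus strand, 74 of 120 bases G or C): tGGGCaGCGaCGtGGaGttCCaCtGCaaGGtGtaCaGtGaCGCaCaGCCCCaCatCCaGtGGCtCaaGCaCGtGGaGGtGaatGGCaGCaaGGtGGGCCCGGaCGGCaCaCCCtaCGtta
EPHA2 (exon 3, chr1:16148712-16148831, minus strand, 72 of 120): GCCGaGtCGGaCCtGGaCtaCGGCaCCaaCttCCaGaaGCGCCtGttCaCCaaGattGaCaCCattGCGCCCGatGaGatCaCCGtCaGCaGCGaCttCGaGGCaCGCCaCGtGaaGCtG
AXL (exon 16, chr19:41252846-41252965, plus strand, 65 of 120): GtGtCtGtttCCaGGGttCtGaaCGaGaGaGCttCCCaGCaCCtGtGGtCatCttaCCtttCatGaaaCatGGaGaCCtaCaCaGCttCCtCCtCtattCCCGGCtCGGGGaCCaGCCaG
MET (exon 2, chr7:116699176-116699295, plus strand, 51 of 120): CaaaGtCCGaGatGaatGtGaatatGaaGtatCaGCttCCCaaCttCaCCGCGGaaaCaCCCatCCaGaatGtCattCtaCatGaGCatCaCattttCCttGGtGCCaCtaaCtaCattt

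The genes covered a wide range of levels. In Control, EPHA2 was the most abundant at 250.2 ± 21.9 TPM (SD, n = 3), at the percentile 96.6 of all genes by mean TPM over the 6 libraries. BAIAP2L1 followed at 68.2 ± 1.59 TPM, MET at 51.7 ± 5.81 TPM, IGF1R at 33.7 ± 4.99 TPM and FGFR3 at 24.3 ± 4.49 TPM. FGFR2, INSR and AXL lay between 5.18 and 7.10 TPM on average, and FGFR1 and FGFR4 were the lowest at 1.85 ± 0.0874 TPM and 1.47 ± 0.176 TPM. In that order, FGFR2 and INSR were the only neighbours whose Control libraries overlapped.

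In RC48 the first 5 genes kept their places, with EPHA2 at 312.6 ± 71.2 TPM, BAIAP2L1 at 65.7 ± 4.30 TPM, MET at 53.8 ± 13.9 TPM, IGF1R at 40.8 ± 2.27 TPM and FGFR3 at 26.2 ± 7.17 TPM. AXL stood sixth at 9.46 ± 1.45 TPM, above FGFR2 at 8.71 ± 0.599 TPM and INSR at 6.91 ± 0.656 TPM, whereas it was eighth in Control. AXL and FGFR2 overlapped between libraries, as did BAIAP2L1 and MET, MET and IGF1R, and FGFR1 and FGFR4.

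**Figure D1:**
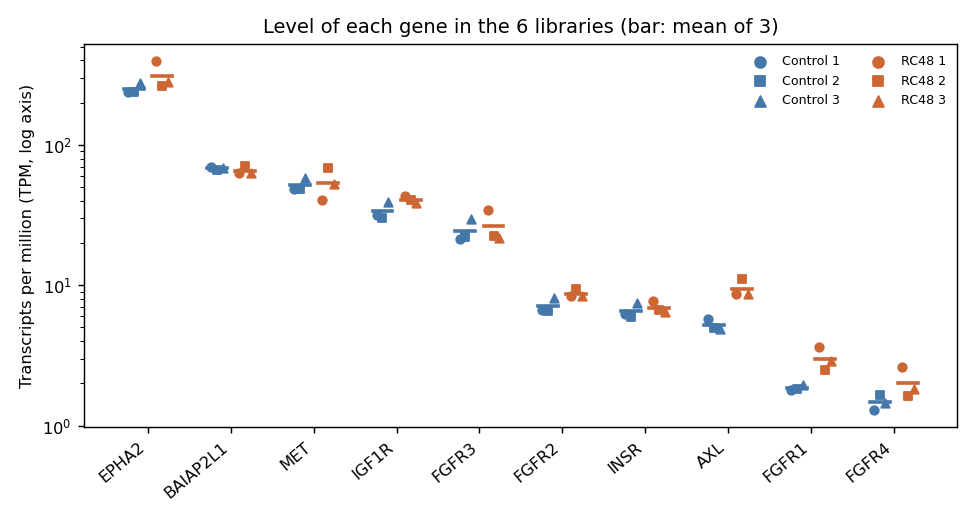
Level of each gene in TPM on a log axis, with 1 point per library and a bar at the mean of the 3 libraries of a group. EPHA2 lies above 230 TPM in every library and FGFR4 below 3 TPM, and the AXL libraries of RC48 lie above all AXL libraries of Control.

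Of the 10 genes, 1 (AXL) rose at an adjusted p under 0.05 in RC48 by edgeR's quasi-likelihood test, which called 2.21% of the 13055 genes tested (1.98% higher and 0.23% lower). All 10 genes had enough counts to be tested. All 10 had a fitted log2 fold change above 0, as had 51.4% of all genes, and the median was 0.33 for the 10 genes against 0.02 for all genes. After the GC correction 8 of 10 were above 0 (51.6% of all genes) with a median of 0.20. In 4 genes (FGFR1, FGFR2, IGF1R and AXL) the lowest RC48 library lay above the highest Control library, a pattern held by 17.4% of all genes, and in 0 of the 10 did RC48 lie below (14.1% of all genes). An unadjusted p under 0.05 was reached by the same 4 genes, and by 19.1% of all genes.

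**Figure D2:**
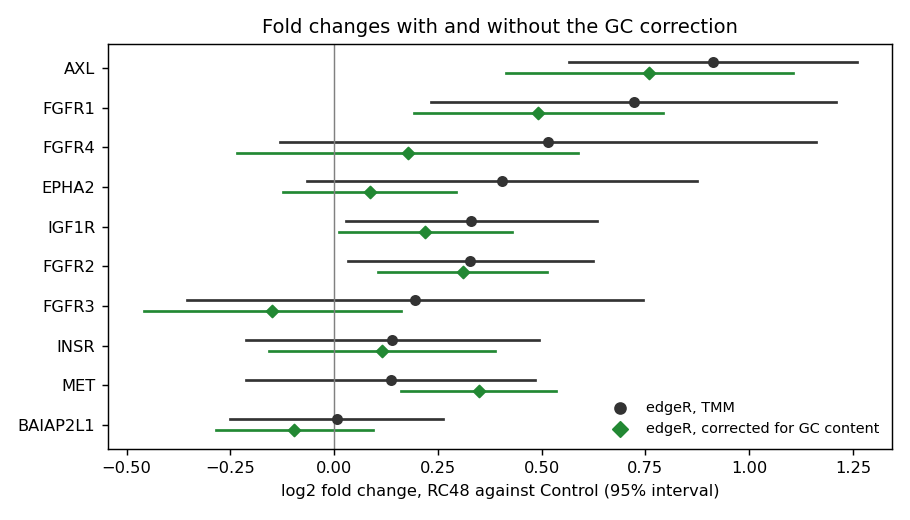
Log2 fold change of RC48 against Control with its 95% interval for each gene, from edgeR on TMM-normalized counts (circles) and with the correction for GC content (diamonds). The intervals of AXL, FGFR1, FGFR2 and IGF1R lie above 0 in both fits, those of FGFR3 and BAIAP2L1 span 0 in both, and that of MET lies above 0 with the correction alone.

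FGFR3 and BAIAP2L1 showed no detectable difference. FGFR3 was at 49.7, 51.7 and 62.7 CPM (counts scaled to library size after TMM normalization) in Control replicates 1, 2 and 3, and at 87.4, 49.1 and 51.4 CPM in RC48 replicates 1, 2 and 3. RC48 replicate 1 was above all the other libraries, while RC48 replicates 2 and 3 lay at the lower end of Control, the first of them just below it. The log2 fold change was 0.19 ± 0.24 (SE), with a 95% interval from −0.35 to 0.74 and an adjusted p of 0.597 by edgeR. This interval holds folds from 0.782 to 1.68. Without RC48 replicate 1 the log2 fold change was −0.13 (adjusted p = 0.579, edgeR), and with the GC correction it was −0.15 (95% interval −0.46 to 0.16, folds from 0.727 to 1.12; adjusted p = 0.505), so its direction followed that library and the correction. In RNA from whole cultures, fewer cells that carry a transcript and less of it per cell cannot be told apart.

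BAIAP2L1 varied little between the libraries. It was at 137, 131 and 122 CPM in Control and at 136, 129 and 126 CPM in RC48, and in CPM all RC48 libraries lay inside the range of Control. In TPM it was at 69.8, 66.6 and 68.2 in Control and at 63.6, 70.6 and 62.8 in RC48. On that scale RC48 replicates 1 and 3 lay below Control and RC48 replicate 2 just above it. The TPM of RC48 replicate 2 was derived here and not taken from the authors. Derived in the same way, RC48 replicate 3 differed from its authors' TPM by up to 0.037 (absolute log2) among the 10 genes. The place of RC48 replicate 2 against Control is therefore uncertain. For BAIAP2L1 the log2 fold change was 0.01 ± 0.11 (SE; 95% interval −0.25 to 0.26; adjusted p = 0.976, edgeR), which leaves folds between 0.841 and 1.20, and −0.10 with the GC correction (adjusted p = 0.479).

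Because the fusion transcript holds sequence of both genes, the 2 genes were also set against each other within each library. The ratio of FGFR3 to BAIAP2L1, in TPM, was 0.304, 0.333 and 0.432 in Control and 0.543, 0.319 and 0.345 in RC48. RC48 replicate 1 again had the highest value and the groups overlapped. The mean ratio was 0.356 ± 0.0667 in Control and 0.402 ± 0.122 in RC48 (SD, n = 3), a log2 difference of 0.15 with a two-sided exact permutation p of 0.6, where 3 against 3 libraries cannot give a p under 0.1. The difference turned to −0.09 without RC48 replicate 1 (exact p = 0.9) and to −0.05 on GC-corrected CPM (exact p = 0.8). Counts per gene add reads of the fusion to those of the intact FGFR3 and BAIAP2L1 transcripts, so neither the fusion nor its share was measured here.

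**Figure D3:**
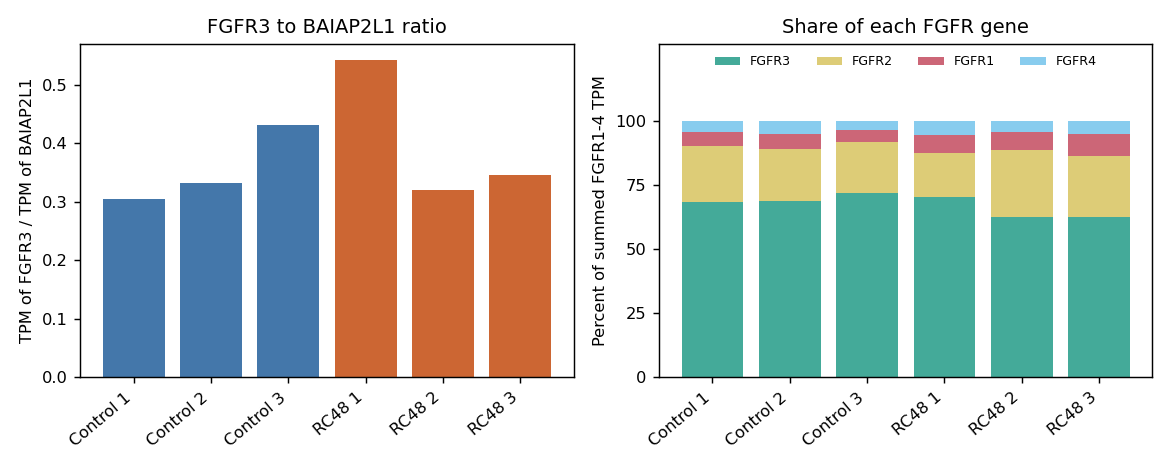
Left, ratio of FGFR3 TPM to BAIAP2L1 TPM in each library; right, percent of the summed TPM of the 4 FGFR genes that each gene took. The ratio is highest in RC48 replicate 1 at 0.543 and lies between 0.304 and 0.432 in the other libraries, and the FGFR3 share is 68.5% or more in Control and in RC48 replicate 1 and 62.3% to 62.6% in RC48 replicates 2 and 3.

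FGFR3 made up most of the FGFR transcripts in both groups. Its share of the summed TPM of FGFR1, FGFR2, FGFR3 and FGFR4 was 68.5%, 68.9% and 71.9% in Control and 70.3%, 62.6% and 62.3% in RC48. RC48 replicate 1 lay within Control and RC48 replicates 2 and 3 lay below it. The mean went from 69.8% ± 1.86 to 65.1% ± 4.54 (SD, n = 3), a difference of −4.71 points (two-sided exact permutation p = 0.3). The share was also lower without RC48 replicate 1, by −7.33 points, and as a share of GC-corrected CPM, by −7.24 points, each with an exact p of 0.1, the smallest that these groups can give. The sum over the 4 genes was 34.7 ± 5.43 TPM in Control and 39.9 ± 7.92 TPM in RC48 (exact p = 0.5).

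Among the sister receptors, FGFR1, which binds many of the FGF ligands and is common in mesenchymal cells, was at 4.74, 5.33 and 4.77 CPM in Control and at 10.2, 6.23 and 8.07 CPM in RC48. All RC48 libraries lay above Control, with the widest gap in RC48 replicate 1. The log2 fold change of FGFR1 was 0.72 ± 0.21 (SE; 95% interval 0.23 to 1.21), a fold of 1.65, and its adjusted p was 0.158 by edgeR over all genes. With the GC correction the log2 fold change was 0.49 (adjusted p = 0.055). It passed the threshold without RC48 replicate 2 (log2 fold change 0.88, adjusted p = 0.0217), in a fit that called 28.3% of all genes.

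FGFR2, a receptor typical of epithelial cells, was at 16.0, 15.7 and 17.7 CPM in Control and at 20.7, 20.8 and 20.5 CPM in RC48. The RC48 libraries lay closely together, and above Control. Its log2 fold change was 0.33 ± 0.13 (SE; 95% interval 0.03 to 0.62; adjusted p = 0.236, edgeR) and 0.31 with the GC correction (adjusted p = 0.0693). Its transcript has 48.8% GC, and its log2 ratio to Control was 0.33, 0.34 and 0.32 in RC48 replicates 1, 2 and 3. At that GC content the trend of all genes was close to 0 in each of the 3 libraries.

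FGFR4, a receptor for FGF19, was the lowest of the 10 genes, at 2.08, 2.67 and 2.12 CPM in Control and at 4.56, 2.40 and 2.89 CPM in RC48. RC48 replicate 2 lay within Control and the other RC48 libraries above it. Fitted over all libraries, the log2 fold change was 0.52 ± 0.28 (SE; 95% interval −0.13 to 1.16; adjusted p = 0.307, edgeR), 0.20 without RC48 replicate 1 (adjusted p = 0.648) and 0.18 with the GC correction (adjusted p = 0.55).

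IGF1R, the receptor for insulin-like growth factors, was at 220.4, 213 and 253 CPM in Control and at 323, 265 and 275 CPM in RC48. Each RC48 library lay above Control, by a small margin in RC48 replicate 2. For IGF1R the log2 fold change was 0.33 ± 0.13 (SE; 95% interval 0.03 to 0.63; adjusted p = 0.241, edgeR), 0.22 with the GC correction (adjusted p = 0.173) and 0.23 without RC48 replicate 1 (adjusted p = 0.215).

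INSR, the insulin receptor, was at 33.5, 31.8 and 36.8 CPM in Control and at 44.2, 33.2 and 35.2 CPM in RC48. RC48 replicates 2 and 3 lay within Control and RC48 replicate 1 above it. Its log2 fold change was 0.14 ± 0.15 (SE; 95% interval −0.21 to 0.49; adjusted p = 0.554, edgeR), and 0.12 with the GC correction (adjusted p = 0.559).

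MET, the receptor for hepatocyte growth factor, was the only one of the 10 genes whose lowest library was RC48 replicate 1. It was at 162, 159 and 185 CPM in Control and at 155, 217 and 183 CPM in RC48. The groups overlapped, and RC48 replicate 2 was the highest. The log2 fold change of MET was 0.14 ± 0.15 (SE; 95% interval −0.21 to 0.49; adjusted p = 0.562, edgeR). With the GC correction the log2 ratios to Control were 0.38, 0.36 and 0.31 in RC48 replicates 1, 2 and 3, and MET was called higher with a log2 fold change of 0.35 ± 0.08 (SE; adjusted p = 0.0354, edgeR), in a fit that called 8.10% of all genes. MET has the lowest transcript GC content of the 10 genes.

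EPHA2, a receptor for ephrin-A ligands on neighbouring cells, was at 507, 506 and 536 CPM in Control and at 917, 523 and 612 CPM in RC48. RC48 replicate 2 lay within Control, RC48 replicate 3 above it and RC48 replicate 1 far above it. For EPHA2 the log2 fold change was 0.40 ± 0.20 (SE; 95% interval −0.07 to 0.87; adjusted p = 0.292, edgeR). It was 0.13 without RC48 replicate 1 (adjusted p = 0.483) and 0.09 with the GC correction (adjusted p = 0.575), and 0.56 without RC48 replicate 2 (adjusted p = 0.0431), in the fit that called 28.3% of all genes.

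AXL, the receptor for GAS6 of the TAM family, was the gene with the largest log2 fold change among the 10. It had 239, 207 and 187 estimated counts in Control and 374, 442 and 384 in RC48, or 13.8, 11.99 and 11.01 CPM against 22.7, 25.2 and 21.4 CPM. The 3 RC48 libraries were close to each other and all above Control. AXL rose with a log2 fold change of 0.91 ± 0.15 (SE; 95% interval 0.57 to 1.26), a fold of 1.88 (1.48 to 2.39), and an adjusted p of 0.0243 by edgeR. With the GC correction the log2 fold change was 0.76 (adjusted p = 0.0194), and RC48 replicate 2, which had no GC trend, had the largest log2 ratio to Control at 1.04.

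The call of AXL depended on which library was left out, although its direction did not. Without RC48 replicate 1 the log2 fold change was 0.92 (adjusted p = 9.4e-04, edgeR, with 6.82% of all genes called) and without RC48 replicate 2 it was 0.84 (adjusted p = 0.0168, with 28.3% of all genes called). The adjusted p was 0.115 without RC48 replicate 3 (0.706% of all genes called), and 0.11, 0.184 and 0.166 without Control replicates 1, 2 and 3 (0.537%, 0.591% and 0.515% of all genes called). AXL was higher in RC48 under all 18 alternatives, with a log2 fold change between 0.64 and 1.00, and was called in 13 of them. These 13 include voom with library weights, which called 61.4% of all genes, and limma in 5 libraries, which called 21.6% and 21.0%.

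The 10 genes were also read within each RC48 library. In RC48 replicate 1, 8 of the 10 genes lay above every Control library (45.6% of all genes did), and 6 had their highest CPM of all libraries there (40.1% of all genes). In RC48 replicates 2 and 3, 5 and 6 genes lay above every Control library (33.4% and 38.5% of all genes). Across the 10 genes, the log2 ratio to Control and the transcript GC content had a Pearson r of 0.81 in RC48 replicate 1, −0.29 in RC48 replicate 2 and 0.11 in RC48 replicate 3. These are descriptions over 10 genes that share a library and a base composition axis. FGFR3, at 62% GC, had a log2 ratio of 0.68 in RC48 replicate 1, close to the 0.69 of the tenth of genes with the highest GC content, and ratios of −0.15 and −0.08 in RC48 replicates 2 and 3.

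**Figure D4:**
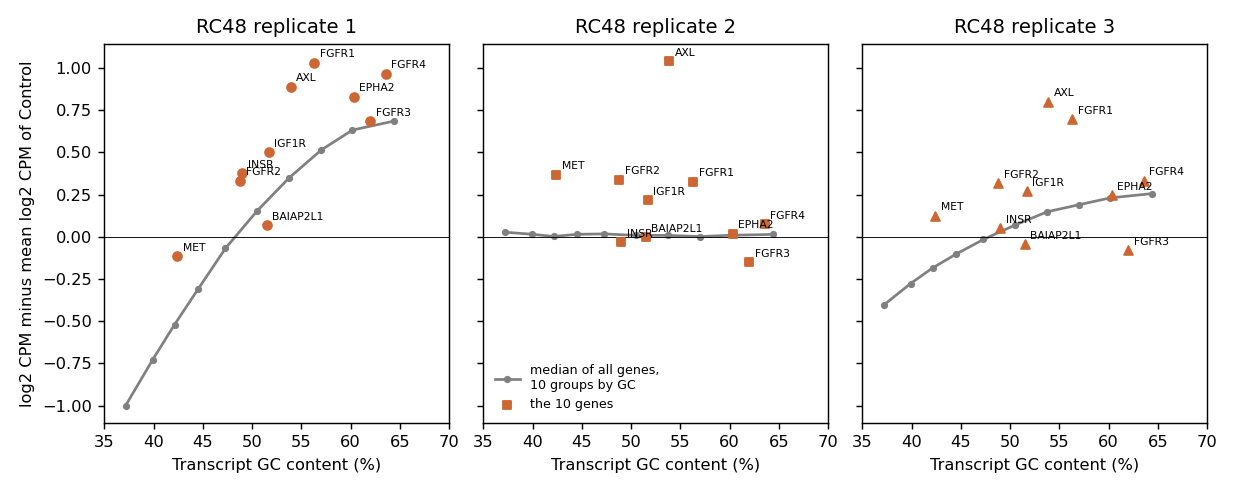
Log2 CPM of each gene minus its mean in Control, against the GC content of its transcript in percent, in the 3 RC48 libraries; the grey line joins the medians of all genes in 10 groups by GC content. In RC48 replicate 1 FGFR3 lies on the line, which climbs from −1.0 to 0.69; in RC48 replicate 2 the line is flat and AXL lies at 1.04.

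The genes whose pattern over the 6 libraries was most like that of FGFR3 were RET, NEIL1 and ITPR3, with root mean square distances of 0.0225, 0.0459 and 0.0531 between centred log2 CPM values (the median gene was at 0.359). RET, another receptor tyrosine kinase, was at 0.820 ± 0.139 TPM in Control and 0.939 ± 0.314 TPM in RC48 (SD, n = 3). It had only 34, 35 and 41 counts in Control and 59, 34 and 36 in RC48, so counting error weighs on its distance. Transcripts of RET, NEIL1 and ITPR3 have 54.5%, 61.3% and 59.1% GC, and the part of the GC trend in these distances was not tested. For BAIAP2L1 they were DYNC1I2, KDELR1 and PTGR1, at distances of 0.0261, 0.0331 and 0.0331 (the median gene was at 0.253).

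The other genes of these pathways were read from 7 lists of 103 genes, of which 86 had rows in the files and 64 had enough counts to be tested. Of the 64, 3 were called higher in RC48 and 0 lower by edgeR (with 1.98% and 0.23% of all genes called), and the median log2 fold change was 0.20 against 0.02 for all genes. Of these 3, FGF1 passed the count filter only through its RC48 libraries. An unadjusted p under 0.05 was reached by 11 higher and 4 lower genes of the 64, and by 19.1% of all genes, and DESeq2 called 4 higher and 2 lower (4.11% and 1.59% of all genes). Among the 11 higher genes, KLB and SHC2 passed the count filter only with their RC48 libraries, as FGF1 did. All 3 calls were lost without any single Control library and without RC48 replicate 3, with 0 genes of the lists called, in fits that called only 0.515% to 0.706% of all genes. With the GC correction 4 were called higher and 4 lower (5.14% and 2.96% of all genes), with a median of 0.06.

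Ligands of the FGF receptors were scarce in these cells. Of 18 FGF genes, 8 had rows and 2 were tested. FGF1, a ligand of all FGF receptors, rose from 3, 0 and 2 counts in Control to 11, 18 and 21 in RC48, that is 5 counts in all against 50, with every RC48 library above Control. The ratio per total counts was 9.5 with an exact 95% interval from 3.81 to 30.5 for counting error only, and the adjusted p was 0.0398 by edgeR and 0.00951 with the GC correction. FGF1 nevertheless stayed low, at 0.458 ± 0.137 TPM in RC48. It passed the count filter only through its RC48 libraries, so its call is not independent of the rise in them. FGF7, a ligand of FGFR2 made mainly by stromal cells, was at 1.01 ± 0.0503 TPM in Control and 0.723 ± 0.293 TPM in RC48 (adjusted p = 0.329), and FGF17 went from 0.673 ± 0.0289 to 1.28 ± 0.659 TPM without enough counts to be tested.

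Of 7 tested FGF co-receptors and binding proteins, 0 were called in either direction by edgeR (1 higher and 1 lower at an unadjusted p under 0.05, and 1 lower by DESeq2). The median log2 fold change was 0.26, and 0.18 with the GC correction. The 1 higher gene, KLB, had 8, 13 and 7 counts in Control and 19, 17 and 19 in RC48. It passed the count filter only with its RC48 libraries, so its p-value is not independent of the rise in them. SDC1, a heparan sulfate proteoglycan of the epithelial surface, was the most abundant at 613.9 ± 20.1 TPM in Control and 456 ± 3.72 TPM in RC48, with all RC48 libraries below Control. Its log2 fold change was −0.36 (adjusted p = 0.17, edgeR) and −0.63 with the GC correction, where it was called (adjusted p = 0.0101). SDC4, its relative, was at 263.8 ± 6.03 TPM and 288 ± 17.9 TPM (adjusted p = 0.299).

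Of 6 tested insulin and IGF ligands and binding proteins, 0 were called by edgeR (1 higher and 1 lower at an unadjusted p under 0.05, and 0 by DESeq2), with a median of −0.02, and of −0.16 with the GC correction. IGFBP4, which binds and holds back insulin-like growth factors, was at 469.7 ± 20.2 TPM in Control and 660.4 ± 116 TPM in RC48 (log2 fold change 0.59, adjusted p = 0.189), with a log2 fold change of 0.26 after the GC correction (adjusted p = 0.0862). IGFBP6, a binding protein that prefers IGF2, was at 269 ± 21.8 TPM and 198 ± 17.8 TPM, with a log2 fold change of −0.30 (adjusted p = 0.294) and, with the GC correction, of −0.59 (adjusted p = 0.0299). IGFBP2 was also called lower with the correction alone (log2 fold change −0.92, adjusted p = 0.00753, edgeR).

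Of 7 tested ligands of MET, AXL and EPHA2, 1 was called. EFNA1, an ephrin-A ligand of EPHA2, was at 25.6, 29.1 and 26.5 TPM in Control and at 76.9, 53.3 and 57.1 TPM in RC48. All RC48 libraries lay well above Control. EFNA1 rose with a log2 fold change of 1.33 ± 0.22 (SE; adjusted p = 0.0256, edgeR) and of 1.04 with the GC correction (adjusted p = 6.8e-04). Its receptor EPHA2 was not called in either of these fits. EFNA4 was at 25.98 ± 1.05 TPM in Control and 29.9 ± 0.508 TPM in RC48 (adjusted p = 0.248). GAS6, the ligand of AXL, was at 14.4 ± 0.376 TPM and 16.7 ± 1.75 TPM (adjusted p = 0.311).

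Of 15 tested related receptor tyrosine kinases, 0 were called by edgeR (1 higher and 1 lower at an unadjusted p under 0.05, and 1 lower by DESeq2). Their median log2 fold change was 0.23, and 0.02 with the GC correction. DDR1, a collagen receptor, was at 186 ± 18.7 TPM in Control and 269 ± 54.7 TPM in RC48 (log2 fold change 0.58, adjusted p = 0.17, and 0.25 with the GC correction, adjusted p = 0.089), and PTK7, a pseudokinase of the Wnt pathway, was at 153 ± 9.22 TPM and 168 ± 28.5 TPM (adjusted p = 0.466). EPHB6, an ephrin receptor without kinase activity, was called lower with the GC correction alone (log2 fold change −0.34, adjusted p = 0.0296, edgeR). Of 19 tested adaptors and proximal effectors, 0 were called by edgeR (2 higher and 1 lower at an unadjusted p under 0.05, and 0 by DESeq2). The median was 0.14, and 0.10 with the GC correction. SHC2, 1 of the 2 higher genes, had 17, 9 and 15 counts in Control and 32, 26 and 30 in RC48. It too passed the count filter only with its RC48 libraries. SHC1 and GRB2, which link receptors to RAS, had the highest levels, with SHC1 at 184 ± 15.8 TPM in Control and 198 ± 26.3 TPM in RC48 and GRB2 at 79.6 ± 2.03 TPM and 83.9 ± 5.82 TPM. CBLB, a ubiquitin ligase that marks receptors for breakdown, was called higher with the GC correction alone (log2 fold change 0.47, adjusted p = 0.0299, edgeR).

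Of 8 tested BAR-domain proteins and their partners, the group that BAIAP2L1 belongs to, 1 was called. PSTPIP2, an F-BAR protein, was at 1.36, 1.43 and 1.67 TPM in Control and at 2.38, 4.06 and 3.17 TPM in RC48, with no overlap. It rose with a log2 fold change of 1.16 and an adjusted p of 0.0323 by edgeR, and of 1.33 with the GC correction (adjusted p = 0.00112). RAC1 and CDC42, the GTPases that such proteins bind, were the most abundant of the list. RAC1 was at 358 ± 8.97 TPM in Control and 351 ± 47.4 TPM in RC48 (adjusted p = 0.816, edgeR), and CDC42 at 133 ± 14.1 TPM and 125 ± 15.4 TPM (adjusted p = 0.293). By DESeq2, 2 genes of this list were called higher.

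**Figure D5:**
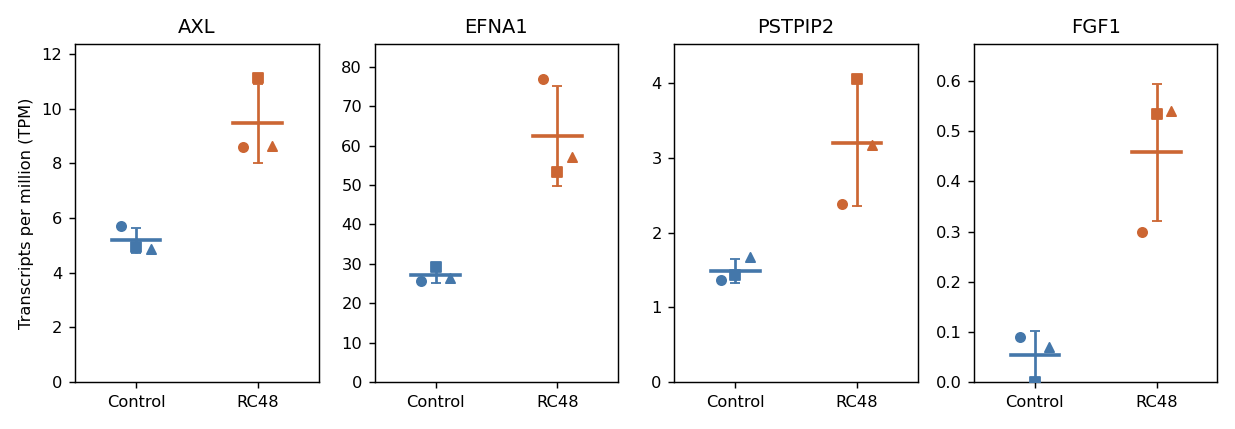
TPM of AXL and of the 3 pathway genes called higher in RC48, with 1 point per library, a bar at the mean and whiskers of 1 SD (n = 3). In each panel all RC48 libraries lie above all Control libraries, and FGF1 stays under 0.6 TPM. FGF1 passed the count filter only through its RC48 libraries, so its call is not independent of the rise shown.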

How the data were processed

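RNA of 3 Control and 3 RC48-exposed SW780 libraries was measured. SOAPnuke (read filter), Bowtie2 (alignment) and RSEM (estimated counts per gene) were run by the authors; versions are not given in the sources used here, and the submitters' processing notes name hg38. The deposited values are the authors' expected counts, without normalization, and TPM, scaled by the authors to transcript length and library size. Whether strand was used in counting is not given in the sources used here. RSEM divides reads that match several genes, and 3 of the 60 values of the 10 genes were not whole (BAIAP2L1 and FGFR2). For RC48 replicate 2, TPM was derived here by dividing its counts by gene lengths inferred from the other 5 libraries (genes with at least 20 counts and 1 TPM). For RC48 replicate 3 the same steps differed from the deposited TPM by a median of 0.00994 (absolute log2, 11982 genes).

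Counts were rounded, filtered with filterByExpr, scaled by TMM, and compared by the quasi-likelihood test of edgeR 4.0.16 (R 4.3.3), with Benjamini-Hochberg adjustment over all 13055 genes at 0.05. Intervals (95%) used the fit's median of 7.77 degrees of freedom. Single values and ratios were tested by two-sided exact permutation. The GC correction entered the loess trend (span 0.3) of each library's log2 CPM on transcript GC content (GENCODE release 29, 16289 of 16390 genes) as an offset. The alternatives were DESeq2 1.42.0, limma 3.58.1 on log2(TPM+1) in 5 libraries, in 6, and with a pseudocount of 0.1, voom with library weights, 2 other scalings (RLE, or library size), 2 other filters (none, or 10 counts in each library), a replicate block, and each library left out. The study's methods used limma on log2(TPM+1). The count test was used here because counts exist for all 6 libraries. The simulated data had 200 changed genes among 12984 tested. In them the edgeR fit of RC48 against Control called 77% of 100 genes changed 1.5-fold, 100 of 100 changed 2-fold and 7 unchanged genes. Simulated libraries were drawn from Control means with the same small fixed spread in both groups and no GC trend. The changed genes were taken from those with higher counts. The real RC48 libraries differed more from each other, so these rates need not hold for them. Depth was 16453233 to 17988030 counts per library, and intervals on counts cover counting error only.

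The 10 genes, the 7 lists and the alternatives were chosen with earlier results of these data known. Named from each list were called genes (the 4 largest changes) and the 2 most abundant genes. Added to that rule after their values were seen were genes called with the GC correction alone, GAS6, KLB, SHC2 and some marker genes. These markers were KRT20, EPCAM, FOXA1, ELF3, KRT19, KRT14, CD44, TP63, PTPRC, LUM, DCN and PDGFRA. For FGFR3 and BAIAP2L1 the 3 genes nearest in centred log2 CPM were named. Figures were drawn with matplotlib 3.10.9 in Python 3.11.15.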

Additional observations from a re-analysis of the deposited data

How the results depend on the processing

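Of the 10 genes, AXL alone was called in the reported fit (2.21% of all genes called). The count stayed at 1 with DESeq2 (5.7%), both other scalings (RLE 2.15%, library size 1.94%), both other filters (none 1.69%, 10 counts in each library 1.82%) and the replicate block (2.54%). It was 2 with limma on log2(TPM+1) or log2(TPM+0.1) in 5 libraries (21.6% and 21.0% of all genes called), 0 with limma in 6 libraries (1.71%), 2 with the GC correction (8.10%), 1 with the block and GC correction together (5.91%, where MET was lost at an adjusted p of 0.0944 by edgeR), 7 with voom and library weights (which called 61.4% of all genes), and 0 to 3 with a library left out (0.515% to 28.3%). Deviations of same-numbered libraries correlated at 0.00, −0.13 and 0.00, and those of differently numbered libraries at −0.11 to 0.13. These values show no sign of pairing by replicate number. They cannot show that the libraries were unpaired, because the GC trend also enters the deviations. The replicate block called 331 genes in place of 288 and 1 of the 10 in place of 1. Pathway genes called were 3 as reported, 6 with DESeq2 (2 lower), 15 and 13 with limma on log2(TPM+1) and log2(TPM+0.1) in 5 libraries (8 and 7 lower, in the fits that called 21.6% and 21.0% of all genes), 1 with limma in 6 libraries, 45 with voom (18 lower), 1 with library sizes alone, 8 with the GC correction (4 lower), 6 with the replicate block and GC correction together (3 lower), and 0 to 16 with a library left out (0.515% to 28.3% of all genes). With at least 10 counts in each library, where FGF1 was not tested, 2 were called. The log2 fold change of FGFR3 turned negative with the GC correction (−0.15), with the block and GC correction (−0.14) and ranged from −0.13 (without RC48 replicate 1) to 0.34 with a library left out. That of BAIAP2L1, 0.01 as reported, was −0.0061 with DESeq2, −0.11, −0.056 and −0.11 with limma on log2(TPM+1) in 5 and 6 libraries and on log2(TPM+0.1), −0.081 with voom, −0.0060 with RLE factors, −0.057 with library sizes alone, −0.0079 with no filter, −0.0056 with at least 10 counts, −0.096 with the GC correction, −0.095 with the block and GC correction, and from −0.039 to 0.043 with a library left out. MET was at −0.16 with limma in 5 libraries under both pseudocounts, which shifted the median of all genes by −0.11 and −0.13. The FGFR3 to BAIAP2L1 log2 difference was −0.050 on GC-corrected CPM and −0.086 to 0.30 with a library left out. The lower FGFR3 share kept its direction in all 10 alternatives. The cause of these changes was not tested. The interval of FGFR3 holds a 1.5-fold rise as reported (0.782 to 1.68) and not with the GC correction (0.727 to 1.12).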

Other observations

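Within the other receptor families, the share of the summed TPM held by each gene is independent of library scaling. AXL made up 24.3%, 22.5% and 19.6% of the TAM receptor transcripts (AXL, TYRO3 and MERTK) in Control and 26.6%, 37.5% and 33.4% in RC48, so all RC48 libraries lay above Control. TYRO3, a relative that also binds GAS6, made up 77.0% ± 2.44 in Control and 66.6% ± 5.66 in RC48 (SD, n = 3), and MERTK 0.883% ± 0.454 and 0.979% ± 0.135. IGF1R made up 83.3%, 83.7% and 84.1% of the transcripts of IGF1R, INSR and INSRR in Control and 84.9%, 85.9% and 85.6% in RC48, again without overlap. MET made up 94.7% ± 0.169 of the summed TPM of MET and MST1R in Control, and 89.1%, 96.6% and 95.5% in RC48 replicates 1, 2 and 3, so that RC48 replicate 1 lay below Control and the other RC48 libraries above it. Transcript GC content is 42.4% for MET and 59.4% for MST1R, and RC48 replicate 1 had the strongest GC trend. These shares were neither tested nor corrected for GC content.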
